A study of Homo sapiens with 6 samples.

Results

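The genes described here encode the enzymes that build cholesterol and fatty acids, a sterol carrier (STARD4) and proteins that control the enzymes' genes. They are 34 genes in all: 19 of sterol synthesis, 11 of fatty acid synthesis and 4 SREBP regulators. The regulators are the genes of the SREBP transcription factors themselves (SREBF1 and SREBF2), SCAP and INSIG1. All were listed by their role in these pathways. The genes were read in U2OS cells, a human osteosarcoma line, collected 6 days after transfection with 4 pooled siRNAs that target CCAR2 (siCCAR2, arrays D, E and F) or with a control siRNA (siLUC, arrays A, B and C). CCAR2 is a nuclear protein that binds and inhibits the deacetylase SIRT1. Total RNA of each of the 6 samples was hybridised to 1 section of a Human HT12_v4 bead array, and the study set the 2 conditions against each other to learn which genes depend on CCAR2. Silencing by a pool does not show which siRNA acts, and all values come from 1 cell line. The probe table used here names no probe for FDFT1 or ACSL3, which were not analysed here. The other 32 genes had 49 probes, 46 of them detected in at least 1 array, and all 32 were among the 12013 genes tested.

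Cells make cholesterol from acetyl-CoA through the mevalonate pathway, and make fatty acids from the same acetyl-CoA through malonyl-CoA. Both sets of enzymes are transcribed under the control of the SREBP proteins, which are held in the endoplasmic reticulum by SCAP and INSIG proteins while sterols are plentiful, and are carried to the Golgi and cut free when sterols run low. SREBP-2, from SREBF2, acts chiefly on sterol synthesis, and SREBP-1, from SREBF1, chiefly on fatty acid synthesis. The factor NF-Y, which binds CCAAT sequences, works beside SREBP at many of these promoters. INSIG1 is itself an SREBP target, so its RNA level is often read as a gauge of SREBP activity.

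The promoters of 4 genes are printed because these genes carry the results that follow: INSIG1 is the gene that differed most between arrays of one condition, SREBF2 encodes the sterol-responsive factor, NSDHL is an enzyme gene rich in CCAAT, and ELOVL1 is one of the genes that ran against the rest. Each window, credited to RefSeq with build GRCh38.p14, holds 250 bases before and 50 bases after an annotated start, 5′ to 3′ on the strand of the gene. Capitals mark CCAAT (also read as ATTGG on the other strand), TCACNCCAC (a core of the sterol response element) and CACGTG (an E-box). The windows lie at chr7:155297628-155297927 (plus strand), chr22:41832855-41833154 (plus strand), chrX:152830813-152831112 (plus strand) and chr1:43367962-43368261 (minus strand).
INSIG1: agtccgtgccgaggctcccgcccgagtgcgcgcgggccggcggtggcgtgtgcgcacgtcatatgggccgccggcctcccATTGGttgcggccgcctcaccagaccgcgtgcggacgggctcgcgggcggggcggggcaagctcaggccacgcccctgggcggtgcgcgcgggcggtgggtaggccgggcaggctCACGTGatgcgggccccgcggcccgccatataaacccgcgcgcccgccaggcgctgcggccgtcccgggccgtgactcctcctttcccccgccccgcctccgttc
SREBF2: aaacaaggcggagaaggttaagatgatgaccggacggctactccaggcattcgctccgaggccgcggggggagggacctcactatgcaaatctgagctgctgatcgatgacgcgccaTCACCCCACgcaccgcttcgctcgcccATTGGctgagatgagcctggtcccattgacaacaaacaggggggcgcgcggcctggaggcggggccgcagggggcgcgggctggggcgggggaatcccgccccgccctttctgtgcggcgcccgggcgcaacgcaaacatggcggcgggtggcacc
NSDHL: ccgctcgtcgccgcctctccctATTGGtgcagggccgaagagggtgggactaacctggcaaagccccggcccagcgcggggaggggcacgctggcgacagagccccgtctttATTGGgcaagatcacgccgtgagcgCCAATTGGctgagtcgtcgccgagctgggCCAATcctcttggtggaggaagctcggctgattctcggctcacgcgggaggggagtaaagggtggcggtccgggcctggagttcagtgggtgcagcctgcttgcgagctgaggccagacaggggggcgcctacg
ELOVL1: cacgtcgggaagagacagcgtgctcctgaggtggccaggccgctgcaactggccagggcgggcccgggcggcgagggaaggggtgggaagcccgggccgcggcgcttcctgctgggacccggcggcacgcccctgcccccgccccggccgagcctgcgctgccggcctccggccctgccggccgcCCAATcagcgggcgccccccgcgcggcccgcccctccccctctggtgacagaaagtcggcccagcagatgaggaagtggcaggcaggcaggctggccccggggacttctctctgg

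Of the 34 genes, 30 were matched by symbol in the promoter table, with 40 windows. A CCAAT on either strand stood in 28 of those 40 windows (70%), against 12155 of all 35116 windows in the table (34.6%). By gene it stood in 14 of 16 sterol synthesis genes, 8 of 10 fatty acid synthesis genes and 2 of 4 regulators (SREBF2 and INSIG1), against 39.7% of all genes in the table, and 7 genes held 3 or more in a single window. NSDHL held 5, at positions -228, -138, -113, -110 and -84 from the start, where the matches at -113 and -110 overlap on opposite strands. TCACNCCAC stood in 1 window, that of SREBF2 at position -133, against 1.13% of all windows. CACGTG stood in 6 windows (15%) of 5 genes (INSIG1, SCAP, LSS, SC5D and ELOVL5), against 7.26% of all windows, and in INSIG1 it lay at position -55. ELOVL1 held a single CCAAT at -65. These are matches of letters in fixed windows and do not show that a factor binds there.

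In the arrays as a whole, 37.2% to 41.0% of 47321 probes were detected, and CCAR2 itself, the check of the silencing, read 9.88, 9.96 and 9.91 in siCCAR2 arrays against 11.43, 11.34 and 11.01 in siLUC arrays on the normalized log2 scale, a log2 fold change of -1.34 (limma adjusted p = 0.0394). Of 9 mesenchymal and osteoblast markers 7 were detected in at least 1 array and 6 in all 6 arrays, with COL1A2 and SP7 below detection. Detected in at least 1 array were also 1 of 5 epithelial markers (EPCAM), 2 of 5 haematopoietic (CD79A and CD14, neither in all arrays), 1 of 5 adipocyte (LEP) and 1 of 5 hepatocyte markers (ALB). CDH1, PTPRC, ADIPOQ and APOA1 were not detected in any array. The summed signal of all 9 mesenchymal markers, undetected ones included and mostly that of VIM, was 39241 to 40238 in siCCAR2 arrays and 44486 to 45612 in siLUC arrays. The sums of the epithelial markers (1237 to 1264 against 1082 to 1184) and haematopoietic markers (567 to 580 against 505 to 537) were higher in siCCAR2 arrays. Those of adipocyte and hepatocyte markers overlapped. The part of these sums in the results was not tested. All 6 arrays share 1 chip with siCCAR2 in sections D to F and siLUC in sections A to C, and position on the chip cannot be told apart from silencing. The study gives the transfection as repeated in triplicate, but no label ties an array to a repeat, so p-values measure only the spread between these arrays, which may be technical. In RNA from a whole culture, fewer cells that express a gene and less RNA per cell cannot be told apart.

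None of the 32 genes changed between siCCAR2 and siLUC cells by the rule used for the whole array, a fold change of at least 1.5 with an adjusted p of at most 0.05 from limma over 12013 genes. That rule called 3 genes of 12013 (0.025%). With the array pairs described below as a block, it called 200 genes (1.66%). At such low rates, 0 of 32 genes called says little about whether these genes changed. The study names the same thresholds and reports many more changed genes than the fit without pairs called here. In the fit without pairs, the smallest adjusted p among the 32 genes was 0.767, and 780 genes of all had an unadjusted p under 0.05. At that looser threshold 1 of the 32 genes was higher (EBP) and 0 were lower, against 3.49% of all genes higher and 3.01% lower. The arrays of the 2 conditions separated fully for EBP alone, which lay above in every siCCAR2 array, whereas 6.35% of all genes lay above and 5.68% below in this way. With 1 and 0 of 32, the genes stood near or under these shares of all genes. STARD4 was below detection in every siCCAR2 array, and no fold is given for it. The log2 fold changes of the other 31 genes ran from -0.34 (HSD17B7) to 0.31 (MVD), with 22 above 0 and 9 below and a median of 0.06, against a median of 0.00 over all genes tested. With median scaling alone, which put the median of all genes at -0.10, the median was -0.06 for sterol synthesis (against 0.08 as normalized here, both with the measured difference of STARD4 counted), 0.01 for fatty acid synthesis and -0.25 for the regulators, so the sign of the small values given here turns with the scaling for 12 of the genes.

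The precision of 3 arrays against 3 limits what these values show. The 95% interval of the log2 fold change lay within a fold change of 1.5 in both directions for 11 of these 31 genes and within a fold change of 2 for 30, so for 20 genes the interval still held a change of 1.5-fold in at least one direction. The exception at 2-fold was ACSS2, whose interval reached 1.09. Its upper bound was the highest of all the intervals, and the lowest bound was -0.99, of INSIG1. These intervals come from the fit without array pairs, in which a difference shared by a pair of arrays counts as spread. With the pairs described below, which no label gives, the SE of ACSS2 was 0.12 against 0.35. That of INSIG1 was 0.13 against 0.36, and that of EBP 0.12 against 0.13. The width of the intervals thus depends on the pairing as well as on the number of arrays.

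**Figure D1:**
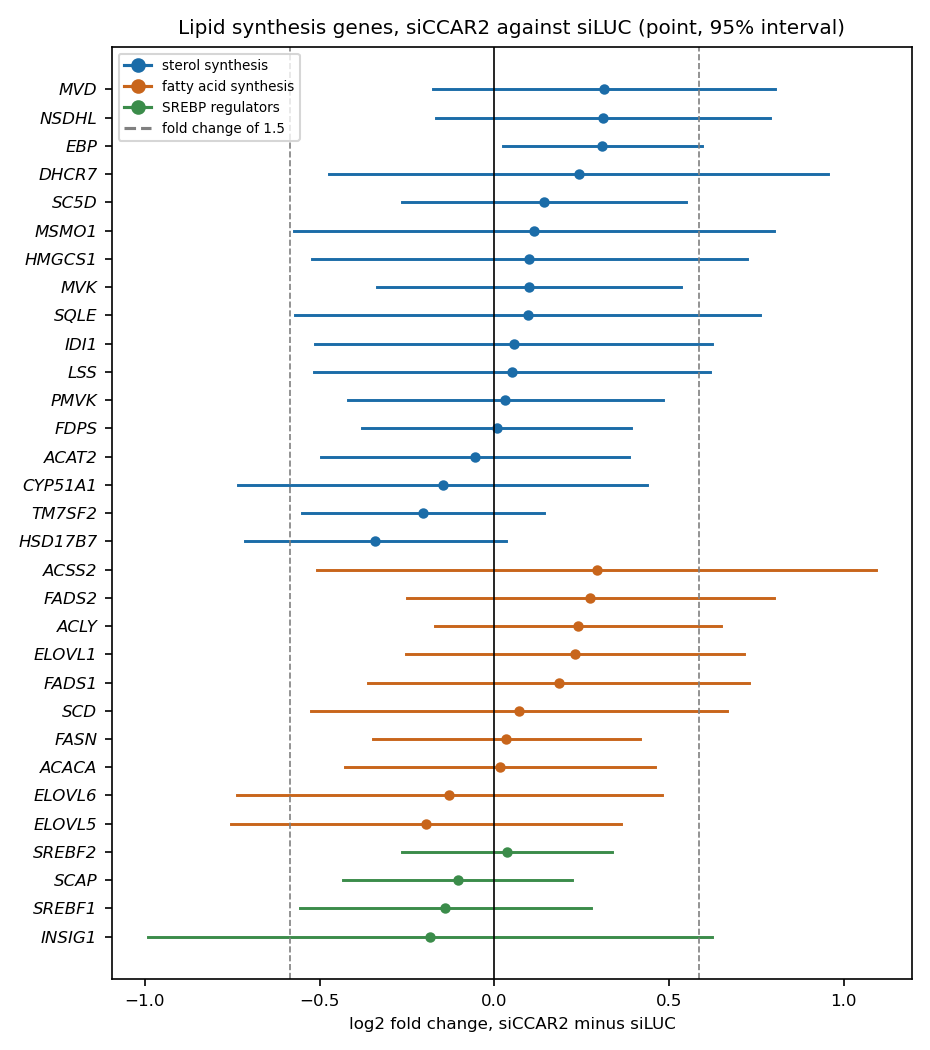
Log2 fold change of each of 31 genes, STARD4 left out (siCCAR2 minus siLUC, horizontal axis; point) with its 95% interval (line), sorted within sterol synthesis, fatty acid synthesis and SREBP regulators; dashed lines mark a fold change of 1.5. The intervals are from the fit without array pairs. The interval of EBP alone leaves out 0, from 0.03 to 0.59, and 20 of the 31 intervals cross a dashed line.

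The 4 regulators had log2 fold changes close to 0 (median -0.12, 1 above 0 and 3 below). SREBF1, which encodes SREBP-1, read 10.66, 10.15 and 10.38 in siCCAR2 arrays D, E and F and 10.76, 10.27 and 10.58 in siLUC arrays A, B and C. The conditions overlapped, with a log2 fold change of -0.14 (SE 0.18, limma adjusted p = 0.901), and E and B were the lowest array of each. SREBF2, which encodes SREBP-2, read 7.51, 7.45 and 7.54 in siCCAR2 arrays and 7.34, 7.61 and 7.45 in siLUC arrays. It was among the steadiest of the genes, and its log2 fold change of 0.04 (SE 0.13, limma adjusted p = 0.972) came with overlapping arrays. SREBF2 was detected in every array but lay near background, where the lowest detected signal of an array was 7.10 to 7.29. No background was subtracted, and the part of this in its small spread and difference was not tested. With neqc background correction its log2 fold change was 0.06.

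SCAP, the escort protein that carries SREBPs to the Golgi, read 11.84, 11.58 and 11.90 in siCCAR2 arrays and 11.90, 11.76 and 11.98 in siLUC arrays, a log2 fold change of -0.11 (SE 0.14, limma adjusted p = 0.907) with overlapping conditions. INSIG1, which holds SCAP in the endoplasmic reticulum, read 10.66, 9.76 and 10.66 in siCCAR2 arrays and 10.93, 9.75 and 10.95 in siLUC arrays. Here arrays E and B stood almost level with each other and far below the rest of their own conditions, and the conditions overlapped. The log2 fold change of INSIG1 was -0.18 (SE 0.36, limma adjusted p = 0.94). Its other probe, detected in 2 arrays of each condition, gave 0.10, and SREBF1 had a further detected probe at -0.17.

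Of the 18 sterol synthesis genes tested, 13 lay above 0 and 4 below, with a median log2 fold change of 0.10 over these 17, STARD4 left out. The early enzymes, from acetyl-CoA to the isoprenoid building blocks, showed small differences: ACAT2 (acetyl-CoA acetyltransferase) had -0.06, HMGCS1 (HMG-CoA synthase) 0.10, MVK (mevalonate kinase) 0.10, PMVK (phosphomevalonate kinase) 0.03, IDI1 (isopentenyl diphosphate isomerase) 0.06 and FDPS (farnesyl diphosphate synthase) 0.01. MVD, the decarboxylase that forms isopentenyl diphosphate, read 9.10, 8.70 and 9.30 in siCCAR2 arrays and 8.83, 8.33 and 9.00 in siLUC arrays. Its log2 fold change of 0.31 (SE 0.22, limma adjusted p = 0.832) came with overlapping conditions, since array E lay under siLUC arrays A and C.

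The enzymes that close and oxidise the sterol rings did not pass the test either. SQLE (squalene epoxidase) had a log2 fold change of 0.10, LSS (lanosterol synthase) 0.05, CYP51A1 (lanosterol demethylase) -0.15 and MSMO1 (methylsterol monooxygenase) 0.11. TM7SF2, a sterol reductase that follows CYP51A1, read 8.54, 8.25 and 8.53 in siCCAR2 arrays and 8.77, 8.72 and 8.44 in siLUC arrays. Array C fell among the siCCAR2 values, and TM7SF2 had a log2 fold change of -0.20 (SE 0.15, limma adjusted p = 0.839).

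NSDHL and HSD17B7 act one after the other in taking methyl groups off the sterol nucleus, and their log2 fold changes had opposite signs. NSDHL, the dehydrogenase, read 11.60, 10.91 and 11.41 in siCCAR2 arrays and 11.27, 10.72 and 11.00 in siLUC arrays, a log2 fold change of 0.31 (SE 0.21, limma adjusted p = 0.832). HSD17B7, the ketoreductase, read 12.21, 12.03 and 12.24 in siCCAR2 arrays and 12.72, 12.20 and 12.58 in siLUC arrays, a log2 fold change of -0.34 (SE 0.16, limma adjusted p = 0.776). In NSDHL arrays D and F stood above all siLUC arrays and E under A and C, and in HSD17B7 arrays A and C stood above all siCCAR2 arrays, and array B lay above E but under D and F. RefSeq lists pseudogene copies of HSD17B7, and whether its probe also reads them was not tested.

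EBP, the isomerase that moves the double bond of the sterol ring, read 10.55, 10.43 and 10.54 in siCCAR2 arrays and 10.14, 10.27 and 10.18 in siLUC arrays. The lowest siCCAR2 value exceeded the highest siLUC value, and the exact permutation test over arrays gave a two-sided p of 0.1, which is the floor for 3 arrays against 3. The means were 10.50 ± 0.06 in siCCAR2 and 10.20 ± 0.07 in siLUC arrays (SD, n = 3 each), a log2 fold change of 0.31 (SE 0.13, limma adjusted p = 0.767), with an unadjusted p of 0.036. EBP also had the smallest spread within conditions of all 32 genes, a pooled SD of 0.0639 log2 units.

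The last enzymes of the pathway lay on the positive side, with SC5D (sterol desaturase) at 0.14 and DHCR7 (the reductase that completes cholesterol) at 0.24. STARD4, a cytosolic sterol carrier, was not well above background in any siCCAR2 array and was detected in 2 of 3 siLUC arrays. Its measured values were 7.10, 6.90 and 7.04 in siCCAR2 arrays and 7.23, 6.63 and 7.61 in siLUC arrays, and the siLUC mean did not exceed the bound that detection sets, so they give no fold.

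Among the 10 fatty acid synthesis genes tested 8 lay above 0 and 2 below, with a median log2 fold change of 0.13. ACLY, the enzyme that makes cytosolic acetyl-CoA from citrate, read 11.51, 11.76 and 11.69 in siCCAR2 arrays and 11.29, 11.77 and 11.17 in siLUC arrays. Array B was the highest of the 6 and E the next, so the conditions overlapped, with a log2 fold change of 0.24 (SE 0.18, limma adjusted p = 0.839). The other ACLY probe, detected in every array and of higher signal, gave 0.02. With the probe of highest mean signal used for each gene, the median of the 10 genes was 0.05. ACSS2, which makes acetyl-CoA from acetate, read 10.84, 10.08 and 11.16 in siCCAR2 arrays and 10.59, 9.68 and 10.93 in siLUC arrays, a log2 fold change of 0.29 (SE 0.35, limma adjusted p = 0.894). Its arrays spanned more than 1 log2 unit within each condition, and the difference between conditions was small beside that. The other detected ACSS2 probes gave 0.28 and 0.16.

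ACACA (acetyl-CoA carboxylase, the committed step) and FASN (fatty acid synthase) had log2 fold changes of 0.02 and 0.03, with 95% intervals of -0.43 to 0.46 and -0.35 to 0.42, all inside a fold change of 1.5. The desaturase genes SCD and FADS1 had 0.07 and 0.18. FADS2, a desaturase of polyunsaturated fatty acids, read 9.23, 8.53 and 9.18 in siCCAR2 arrays and 8.88, 8.33 and 8.91 in siLUC arrays, a log2 fold change of 0.27 (SE 0.23, limma adjusted p = 0.849). As in MVD and NSDHL, arrays D and F stood above the siLUC values and E fell below A and C.

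The elongase genes differed in sign. ELOVL1, which extends saturated very long chains, read 9.75, 9.89 and 9.54 in siCCAR2 arrays and 9.33, 9.97 and 9.19 in siLUC arrays, a log2 fold change of 0.23 (SE 0.21, limma adjusted p = 0.858). ELOVL5, which extends polyunsaturated chains, read 11.41, 11.31 and 11.65 in siCCAR2 arrays and 11.54, 11.20 and 12.23 in siLUC arrays, a log2 fold change of -0.20 (SE 0.25, limma adjusted p = 0.899). In ELOVL5 array C stood above the other 5 arrays, and in ELOVL1 array B did. ELOVL6, which extends palmitate, had -0.13. Across the 11 genes with several detected probes, 8 had probes of one sign, and the probes of ACACA, INSIG1 and SQLE differed in sign, where INSIG1 had -0.18 and 0.10.

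**Figure D2:**
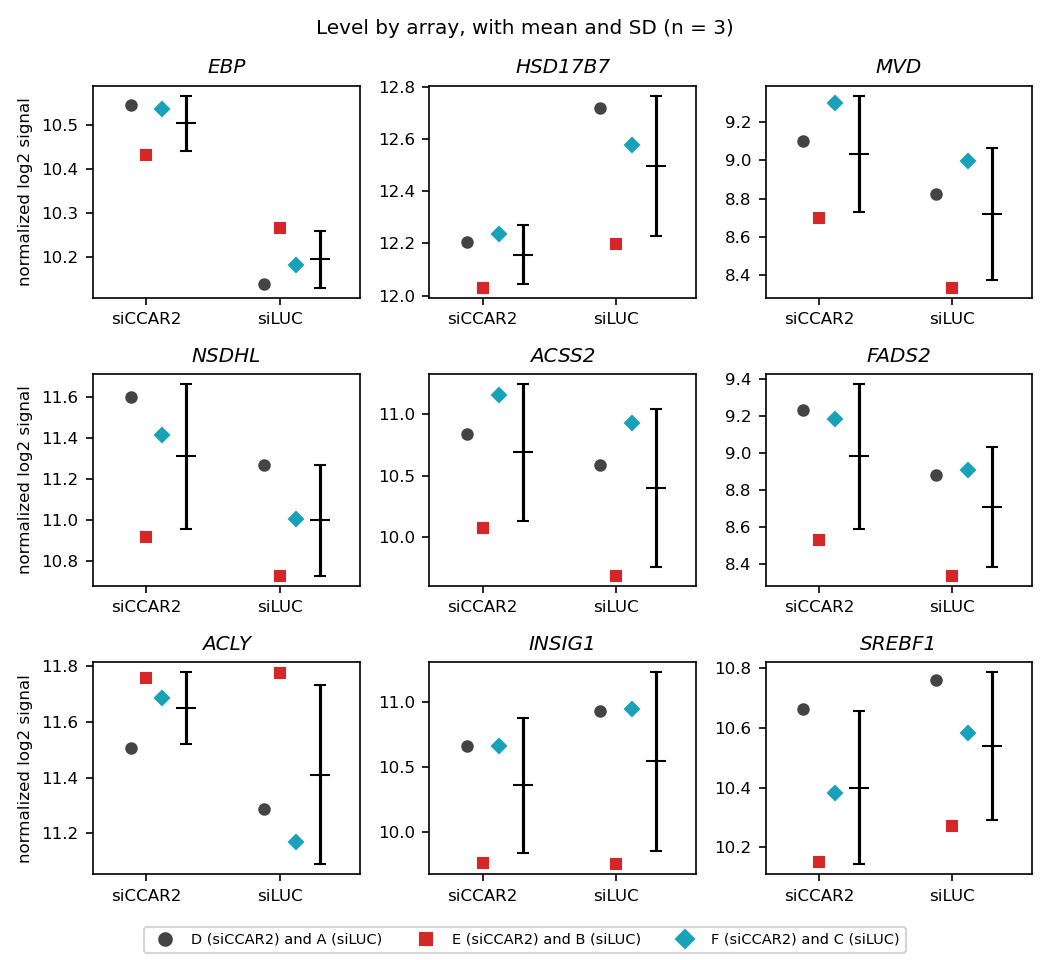
Normalized log2 signal (vertical axis) of 9 genes in siCCAR2 arrays (left) and siLUC arrays (right), 1 point per array, with the mean and SD (n = 3) beside them; symbols mark arrays D and A, E and B, and F and C. The conditions overlap in each panel except that of EBP, and the lowest siCCAR2 and siLUC points of MVD, NSDHL, HSD17B7, ACSS2, FADS2, INSIG1 and SREBF1 are arrays E and B.

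The genes shared a difference between arrays of the same condition. In 26 of the 32 genes (81.2%) array E was the lowest of the siCCAR2 arrays and array B the lowest of the siLUC arrays, against 2866 of the 12013 genes tested (23.9%). This pattern was noticed in these values and is a description. It counts STARD4 by its measured values, and held for 15 of 18 sterol synthesis genes, 8 of 10 fatty acid synthesis genes and 3 of 4 regulators, and for 36 of the 46 detected probes. Only ACLY and ELOVL1 were highest in both E and B (6.25%, against 22% of all genes), and the other 4 (EBP, PMVK, SREBF2 and TM7SF2) were lowest in E but not in B. The 26 genes were counted under the quantile normalization used throughout, and the count was 23 with median scaling and 25 or 26 under the other normalizations, filters and probe rules.

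The size of this dip can be set beside the difference between the conditions. Over the 32 genes, the median of array E minus the mean of D and F was -0.35 and that of array B minus the mean of A and C was -0.54 on the log2 scale, while the medians over all genes were -0.01 in each. The median difference between conditions over the same 32 genes was 0.05. In 25 of the 32 genes (78.1%) the dip of E and B, averaged, was larger in size than the difference between siCCAR2 and siLUC, against 31.5% of all genes. In 3 more genes (ACLY, ELOVL1 and SREBF2) E and B were on average raised, by more than that difference, against 30.2% of all genes. The median pooled SD within conditions was 0.32 for these genes and 0.19 for all genes, from 0.0639 (EBP) to 0.609 (INSIG1).

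The genes with the deepest dips came from every class. INSIG1 differed by -0.90 in E and -1.19 in B, on the log2 scale against the other arrays of each condition. ACSS2 differed by -0.92 in E and -1.08 in B, DHCR7 by -0.996 in E and -0.78 in B and MSMO1 by -0.74 in E and -0.98 in B. DHCR7 read 11.44, 10.35 and 11.26 in siCCAR2 arrays and 11.17, 10.25 and 10.89 in siLUC arrays, and MSMO1 11.65, 10.91 and 11.64 in siCCAR2 arrays and 11.51, 10.63 and 11.71 in siLUC arrays. The further probes of MSMO1 differed in this. One was lowest in both E and B. The other read 8.31, 8.23 and 8.48 in siCCAR2 arrays and 8.19, 8.28 and 8.04 in siLUC arrays, and in it B was the highest siLUC array. In HMGCS1 and IDI1 the dip was mostly that of B: HMGCS1 differed by -0.25 in E and -1.06 in B, and IDI1 by -0.35 in E and -0.90 in B. SQLE read 12.71, 12.02 and 12.54 in siCCAR2 arrays and 12.62, 11.65 and 12.71 in siLUC arrays, so that array E lay between B and the rest. SCD, FADS1, FADS2 and ELOVL6 dipped by 0.40 to 0.68 in E and by 0.56 to 0.97 in B.

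By class, the median deviation from each gene's mean over the 6 arrays was 0.18, -0.23 and 0.14 in arrays D, E and F and 0.19, -0.41 and 0.14 in arrays A, B and C for sterol synthesis. For fatty acid synthesis it was 0.13, -0.26 and 0.23 in siCCAR2 arrays and -0.02, -0.44 and 0.27 in siLUC arrays. The regulators had 0.11, -0.28 and 0.07 in siCCAR2 arrays and 0.18, -0.13 and 0.13 in siLUC arrays. Arrays E and B were thus the low ones of their condition in all 3 classes, and B lay below E for the enzymes and above it for the regulators. Array B had a summed signal of 3.70e+07 before normalization, the lowest of the siLUC arrays, and E had 4.42e+07, the highest of the siCCAR2 arrays, with 37.2% and 38.3% of probes detected, the lowest share of each condition. The part of these in the dip was not tested.

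**Figure D3:**
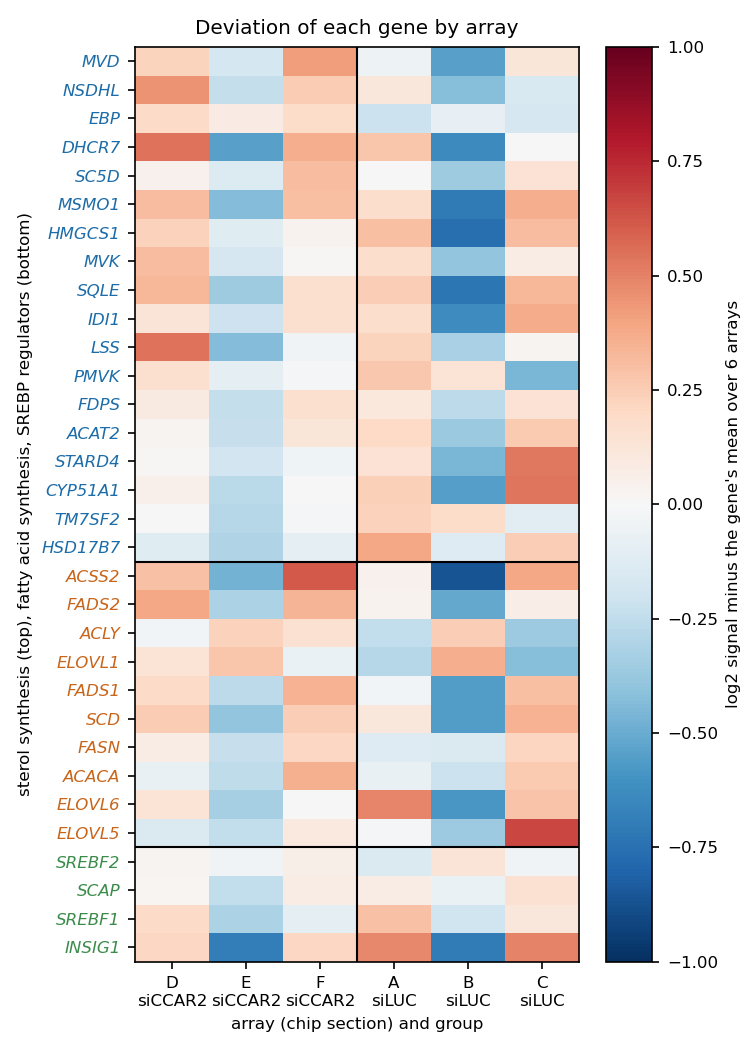
Normalized log2 signal of each of the 32 genes minus its mean over 6 arrays (colour, blue below and red above the mean), with siCCAR2 arrays D, E and F left of siLUC arrays A, B and C. The columns of E and B are blue for most genes, and ACLY and ELOVL1 are red in both.

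**Figure D4:**
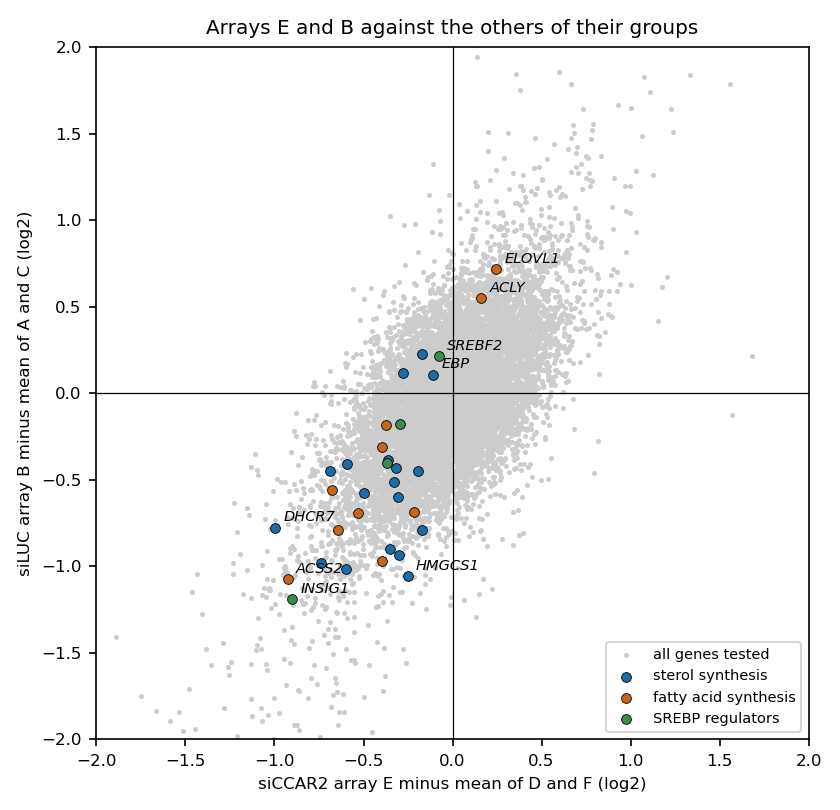
Array E minus the mean of D and F in siCCAR2 cells (horizontal axis, log2) against array B minus the mean of A and C in siLUC cells (vertical axis, log2), 1 point per gene; grey points are the genes tested (38 lie outside the axes) and coloured points the 32 genes by class. Most coloured points lie in the lower left, with ACSS2 and INSIG1 among the lowest on both axes, and ACLY and ELOVL1 lie in the upper right.

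The comparison was also made with the arrays taken in pairs (D with A, E with B, F with C) as a replicate block. No label pairs the arrays, and the pairing rests on an earlier comparison with a table of the study and on the arrays' own deviations, so it is a hint from the data, not the design. With the block 200 genes of 12013 (1.66%) were called and again 0 of the 32, whose smallest adjusted p was 0.173 (HSD17B7). At an unadjusted p under 0.05, 5 of the 32 genes were higher (MVD, NSDHL, EBP, ACSS2 and FADS2) and 1 was lower (HSD17B7), against 9.09% of all genes higher and 8.18% lower. Under the other 5 pairings this count was 0 in 4, where 1.81% to 2.98% of all genes were higher and 1.36% to 2.41% lower. It was 1 higher and 1 lower in the pairing of F with A, E with B and D with C, against 5.29% of all genes higher and 4.6% lower, which is no more than the share of all genes.

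The differences within the pairs ran as follows. ACSS2 differed by 0.25, 0.39 and 0.23 in D minus A, E minus B and F minus C, and its adjusted p with the block was 0.228. MVD differed by 0.28, 0.37 and 0.30 (adjusted p = 0.193 from limma with the block), NSDHL by 0.33, 0.19 and 0.41 (0.202) and FADS2 by 0.36, 0.20 and 0.27 (0.26). For HSD17B7 the 3 differences were -0.51, -0.17 and -0.34, and for EBP they were 0.41, 0.17 and 0.36, with an adjusted p of 0.207 from limma with the block. None of these 6 genes passed after adjustment. One sign in all 3 pairs, which a low p with the block largely fixes, was seen in 11 of the 32 genes: 8 (25%) were above 0 in every pair, against 20.2% of all genes, and 3 (9.38%) were below, against 18.6%. Beside the 6 they were SC5D, DHCR7 and FADS1 above and SREBF1 and SCAP below. INSIG1 differed by -0.27, 0.01 and -0.29 and HMGCS1 by -0.07, 0.64 and -0.27, without a common sign.

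Without arrays E and B, an alternative chosen after the values were seen, 0 of the 32 genes were called and the smallest adjusted p was 0.312, while 3 genes (9.38%) lay higher and 1 (3.12%) lay lower by an unadjusted p under 0.05, against 6.88% of all genes higher and 6.97% lower. The class medians were then 0.02 for sterol synthesis, STARD4 counted by its measured difference here and in the next values, 0.11 for fatty acid synthesis and -0.11 for the regulators. The median of the sterol genes changed sign with single arrays, at -0.14 without array B and -0.03 without D, against 0.20 without E or C. That of fatty acid synthesis was -0.06 without B and between 0.01 and 0.17 without any other array.

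The genes around these pathways were read from 5 further lists. None of their members was called without or with the block. Among 8 tested genes of SREBP processing the median log2 fold change was -0.13, and 0 had an unadjusted p under 0.05. ERLIN2, a membrane protein of the sterol-regulated degradation machinery, had 0.22, and INSIG2, the second INSIG protein, had -0.35, with 8.86, 8.49 and 9.15 in siCCAR2 arrays and 9.22, 8.56 and 9.76 in siLUC arrays. Among 11 tested genes of the isoprenoid branches (median 0.10) RCE1, a protease of prenylated proteins, had 0.39 and FNTA, a farnesyltransferase subunit, 0.24.

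In 14 further fatty acid genes (median -0.04) 1 gene lay higher and 0 lay lower by an unadjusted p under 0.05, against 3.49% of all genes higher and 3.01% lower. It was SLC25A1, the mitochondrial citrate carrier that supplies ACLY, which read 11.49, 11.16 and 11.49 in siCCAR2 arrays and 11.06, 10.92 and 10.96 in siLUC arrays. All siCCAR2 arrays lay above all siLUC arrays, as they did for 6.35% of all genes. SLC25A1 had a log2 fold change of 0.41 (SE 0.14, limma adjusted p = 0.767) and an adjusted p of 0.107 with the block. HACD3, a dehydratase of fatty acid elongation, had -0.25. Of 12 genes of sterol export and storage (median 0.00) the sterol receptor LXR alpha, from NR1H3, had 0.26 and MYLIP, a ubiquitin ligase induced by LXR, -0.25. Of 11 genes of triglyceride synthesis (median 0.03) AGPAT1, an acyltransferase, had 0.27 and PLIN2, a lipid droplet coat protein, 0.36. In AGPAT1 all siCCAR2 arrays again lay above all siLUC arrays, against the same 6.35% of all genes. GPAT3 of that list had 0.42 (limma adjusted p = 0.839) with overlapping conditions. Its adjusted p from limma with the block, 0.0900, was the smallest of these lists.

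The dip in arrays E and B was also counted in these lists. It was seen in 2 of 8 genes of SREBP processing (25%) and 3 of 11 of the isoprenoid branches (27.3%), near the 23.9% of all genes tested. Above that share were 5 of 14 further fatty acid genes (35.7%), 7 of 12 of sterol export and storage (58.3%) and 5 of 11 of triglyceride synthesis (45.5%). The count was 26 of the 32 synthesis and regulator genes. The lists differ in size and were not tested against each other.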

How the data were processed

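RNA of 3 siCCAR2 and 3 siLUC samples was read on Human HT12_v4 arrays. The authors deposited non-normalized bead intensity on a linear scale and a detection p-value for each probe, made with BeadStudio 3.8 per the labels and GenomeStudio per the methods. The labels name an FFPE RNA kit and a microRNA labelling guide, whereas the methods describe phenol extraction and total RNA labelling. A deposited table of normalized intensity equals quantile normalized signal within a relative difference of 0.00527. The methods name robust spline normalization, which was not run here. Signals were put on the log2 scale and quantile normalized between arrays. No background was subtracted. Probes with 1 gene symbol (30112 of 47321) and detection p under 0.01 in at least 1 array were kept, and for each gene the probe detected in most arrays, then of highest interquartile range, was used. R 4.3.3 and its package limma 3.58.1 compared the conditions. The p-values were adjusted by the Benjamini-Hochberg method over 12013 genes, and 95% intervals came from the moderated test without the block. No p was adjusted over the members alone and no gene set test was run. Values of every array are given for the regulators, and in each enzyme class for the 5 genes of smallest p without the block and the 3 with it. In the further lists the 2 of smallest p are named. Other named values were chosen after they were seen. Members, lists and this rule were chosen with earlier results of these data known. Replicate pairs are stated by no label. The study's own table is titled as paired, and the pairing used was taken from an earlier comparison with that table, so the block is no independent check of it. Correlations of the deviations from the condition means were 0.615 for D and A, 0.665 for E and B and 0.440 for F and C, and of the other 6 couples only D and C had a positive one (0.143). Other normalizations, filters, probe rules, weights and left-out arrays were tried. The tests were checked on simulated data. Promoter windows came from RefSeq (GRCh38.p14), with motifs searched on both strands. Depth on arrays is limited by the number of arrays. Figures were drawn with matplotlib 3.10.9.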

Additional observations from a re-analysis of the deposited data

How the results depend on the processing

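None of the 32 genes was called under any of the alternatives run, and the smallest adjusted p of any of them in limma was 0.142, with array quality weights. The count of genes called on the whole array was 0 with median scaling, with neqc, with the probe of highest mean signal and without arrays E and B, 18 with array quality weights, 200 with the replicate block, and from 0 to 8 with 1 array left out, against 3. The class medians, which here count the measured difference of STARD4, moved by less than the spread of the class between arrays. That spread (0.28 for sterol synthesis, 0.31 for fatty acid synthesis and 0.19 for the regulators) exceeded the medians themselves, so it is a loose measure. The median of sterol synthesis changed sign with median scaling (-0.058, where the median of all genes was -0.10, against 0.00) and with array quality weights (-0.045). Those of both enzyme classes also changed sign with single arrays left out, as given above. For single genes other than STARD4, which has no fold, 349 of 372 values under the other alternatives and 145 of 186 with 1 array left out kept the sign of the log2 fold change. The sign turned with median scaling for HMGCS1 (-0.025), MVK (-0.017), PMVK (-0.092), IDI1 (-0.087), FDPS (-0.12), SQLE (-0.029), LSS (-0.091), MSMO1 (-0.022), ACACA (-0.12), FASN (-0.065), SCD (-0.042), SREBF2 (-0.025), with array quality weights for HMGCS1 (-0.12), MVK (-0.027), PMVK (-0.12), IDI1 (-0.045), FDPS (-0.017), SQLE (-0.045), LSS (-0.059), and without arrays E and B for HMGCS1 (-0.17), IDI1 (-0.13), FDPS (-0.0034), SQLE (-0.044). With 1 array left out it turned in at least 1 fit, over the ranges given, for ACAT2 (-0.26 to 0.060), HMGCS1 (-0.25 to 0.28), MVK (-0.073 to 0.21), PMVK (-0.19 to 0.18), IDI1 (-0.24 to 0.25), FDPS (-0.12 to 0.13), SQLE (-0.24 to 0.30), LSS (-0.21 to 0.28), CYP51A1 (-0.46 to 0.082), MSMO1 (-0.21 to 0.36), SC5D (-0.0026 to 0.25), DHCR7 (-0.018 to 0.57), ACSS2 (-0.066 to 0.60), ACACA (-0.16 to 0.15), FASN (-0.063 to 0.16), ELOVL5 (-0.43 to 0.090), ELOVL6 (-0.45 to 0.084), SCD (-0.19 to 0.28), FADS1 (-0.047 to 0.38), SREBF2 (-0.028 to 0.11), INSIG1 (-0.58 to 0.12). The cause of these turns was not tested. The number of arrays, 3 in each condition, limits the precision, and STARD4 and SREBF2 lay near background.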
